A study of Mus musculus with 18 samples.

Results

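The genes described here encode the proteins of the mitochondrial ribosome that carry a Mrpl or Mrps symbol. They were taken as every gene whose symbol starts with Mrpl or Mrps followed by a digit, read from the probe sets that name 1 gene, with the brightest probe set kept where a gene had several. This gave 77 of the 19938 genes measured: 48 with a large subunit symbol (Mrpl) and 29 with a small subunit symbol (Mrps). The probe set of Mrpl53 also names Ccdc142, so Mrpl53 was not among them.

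The mitochondrial ribosome translates the few messages encoded by mitochondrial DNA, which all specify membrane subunits of the respiratory chain and ATP synthase. Its ribosomal RNAs come from mitochondrial DNA, whereas all of its proteins are nuclear genes, made in the cytosol and imported. Some of these proteins have counterparts in the bacterial ribosome and others are found in mitochondria only.

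Total RNA of mouse B16 F10.9-4 cells, a melanoma line, was hybridized to 18 one-colour Affymetrix arrays in 6 groups of 3. The groups were doxycycline at 0 h, doxycycline followed by tunicamycin for 5 h, doxycycline followed by tunicamycin for 12 h, tunicamycin alone for 5 h, tunicamycin alone for 12 h, and vehicle at 0 h. Doxycycline induced overexpression of LIP, the short isoform of the transcription factor C/EBPβ, a form that binds DNA with little of the activation domain. Tunicamycin blocks N-linked glycosylation and thereby causes stress in the endoplasmic reticulum. All cells were of this 1 line, so every group shares its background. Tunicamycin was compared with vehicle of 0 h, so the drug and the hours in culture cannot be told apart, and neither can LIP and doxycycline itself. The submitters describe 3 independent experiments with all 6 conditions in each. Arrays are called experiment 1, 2 and 3 after the replicate number in their labels, in that order wherever 3 values are given below; the labels do not state that a number marks the same experiment in every group.

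All levels are log2 intensities as the authors summarised them, and a change is a difference of group means on that scale, so that a change of 1 is a doubling. A gene was called where the adjusted p of limma, over all 19938 genes, lay below 0.05. The Cebpb probe set read 11.02, 11.27 and 11.24 with doxycycline, against 9.26, 9.26 and 9.48 with vehicle. The doxycycline arrays were thus all higher (change 1.84 ± 0.071 SE, limma, adjusted p = 2.02e-11). With 12 h of tunicamycin alone Cebpb read 10.37, 10.23 and 10.28, also higher than vehicle. Its doxycycline change was 1.81 at 5 h of tunicamycin and 1.22 at 12 h. Array medians lay between 6.96 and 7.04, and arrays of 1 group correlated at r = 0.997 to 0.999. The arrays varied about their group means with a standard deviation over all genes of 0.0606 to 0.113, and the tunicamycin 5 h array of experiment 2 had the 0.113. Of 12 melanocyte markers, 10 lay above the level of olfactory and vomeronasal receptor genes, taken here to set a low level (95th percentile 6.09 over 1178 genes); Kit and Ednrb did not. Of the leukocyte, endothelial, fibroblast and epithelial markers, 2 of 9, 3 of 8, 5 of 8 and 3 of 8 lay above it, none over 7.90. All 77 mitochondrial ribosomal protein genes lay above it on every array, the lowest reading being 7.95. In a bulk sample, fewer expressing cells and less RNA per cell cannot be told apart.

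After 12 h of tunicamycin, 9 mitochondrial ribosomal protein genes rose and 20 fell against vehicle, and 48 did not pass the test. Mrpl24 and Mrps18b rose by over 0.6 on the log2 scale, while Mrpl18, Mrpl34 and Mrps25 fell by about 0.5 or more. The share called was 37.7%, beside a background of 27.7% of all genes (11.9% higher and 15.8% lower) and 40.5% of the 13247 genes above the receptor level. The median change of the 77 genes was -0.041, against 0.001 for all genes, and the changes ran from -0.82 to 0.69. With array medians set equal the split was 6 higher and 24 lower. The dot plot of changes at 12 h shows every one of these genes.

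**Figure D1:**
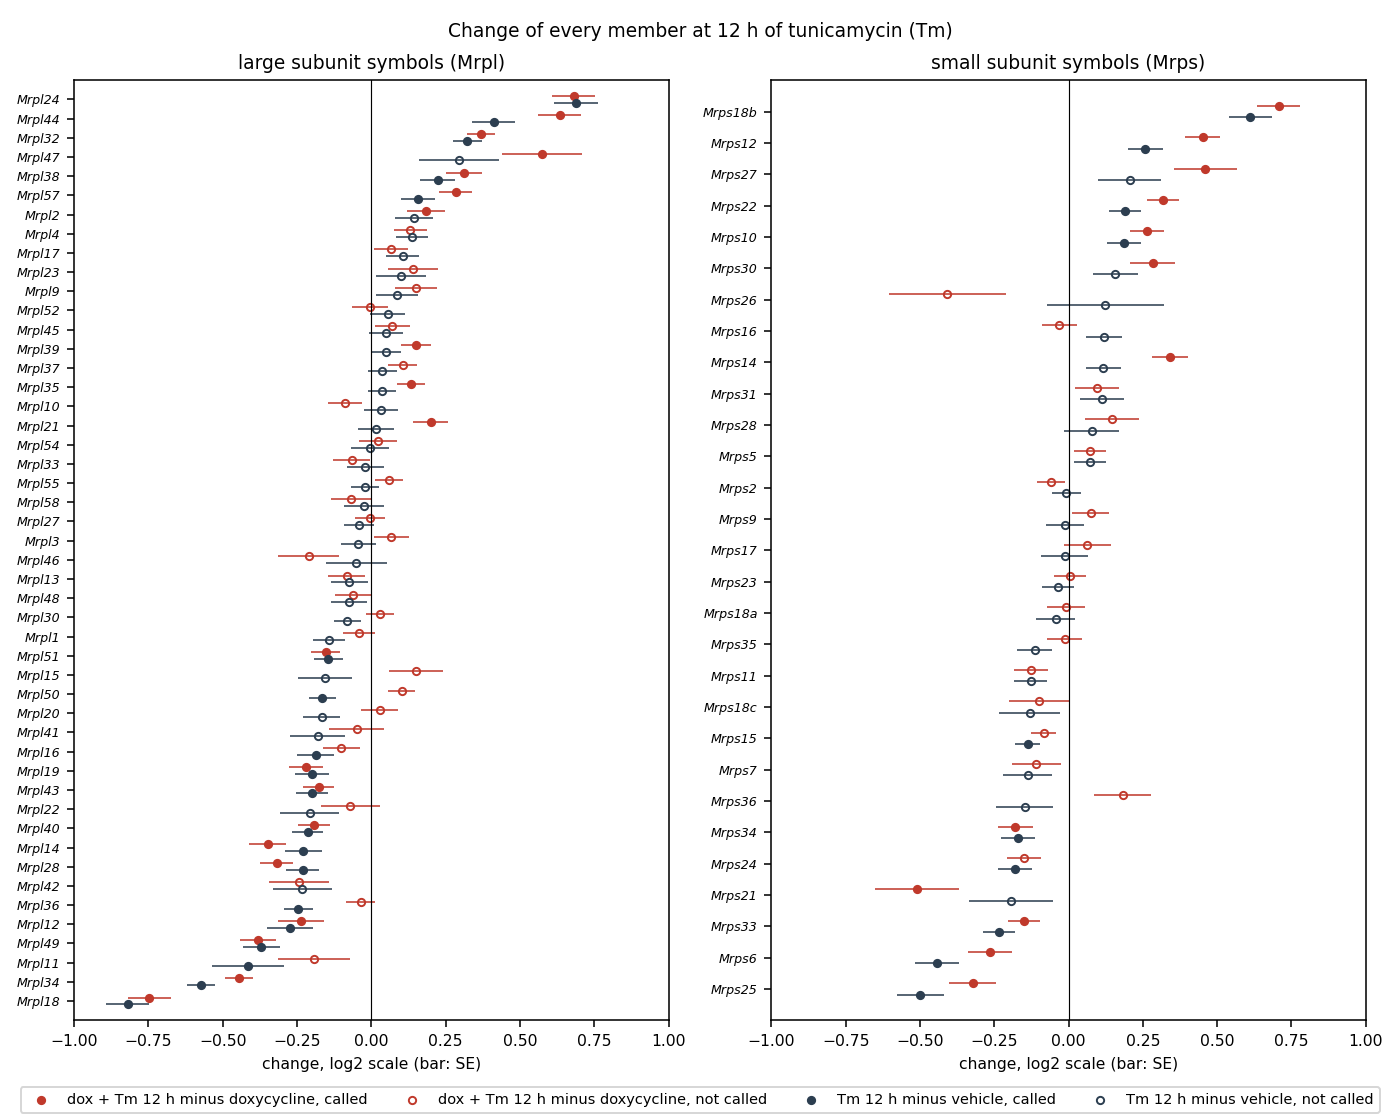
Change on the log2 scale (x axis) of each of the 77 genes (rows, large subunit symbols on the left and small on the right), with its SE as a bar. Red points give doxycycline plus 12 h of tunicamycin minus doxycycline and dark points 12 h of tunicamycin minus vehicle, filled where the gene was called. Mrpl24 and Mrps18b stand highest and Mrpl18 lowest in both, and most genes lie within 0.25 of 0.

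Among large subunit genes that rose, Mrpl24, whose bacterial counterpart binds early in assembly of the large subunit, read 10.88, 10.85 and 10.78 with tunicamycin, against 10.20, 10.13 and 10.12 with vehicle. The lowest treated array lay well above the highest vehicle array, a change of 0.69 ± 0.074 or 1.61-fold (limma, adjusted p = 6.25e-07). Mrpl44, a large subunit protein related to ribonuclease III, read 9.16, 9.11 and 9.11, against 8.69, 8.66 and 8.81. The groups did not overlap (0.41 ± 0.073, adjusted p = 0.000194). Mrpl32, whose precursor is cut by a protease of the inner membrane before assembly in yeast and mouse, read 9.63, 9.67 and 9.61, against 9.30, 9.32 and 9.32. Its 3 treated arrays were all higher (0.32 ± 0.048, adjusted p = 3.38e-05). Mrpl38 rose by 0.22 (adjusted p = 0.00754) and Mrpl57, a protein without a bacterial counterpart, by 0.16, each in all 3 experiments.

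Among small subunit genes that rose, Mrps18b, one of 3 related genes that descend from a single bacterial ribosomal protein gene, read 11.98, 11.89 and 11.99 with tunicamycin, against 11.40, 11.34 and 11.29 with vehicle. All treated arrays were higher (0.61 ± 0.073, 1.53-fold, adjusted p = 2.36e-06). Mrps12, the counterpart of a bacterial protein at the decoding centre, read 8.24, 8.25 and 8.29, against 8.12, 7.95 and 7.95. The groups did not overlap, although the vehicle array of experiment 1 came near (0.26 ± 0.059, adjusted p = 0.00225). Mrps22 and Mrps10 each rose by 0.19 (adjusted p = 0.011 and 0.0195). The call of Mrps22 was lost under 3 of 15 alternative settings and that of Mrps10 under 4, with adjusted p up to 0.0583 without experiment 2 of tunicamycin 12 h for Mrps22, and up to 0.147 without experiment 3 of vehicle for Mrps10.

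The genes that fell were led by Mrpl18, whose human protein is implicated in bringing cytosolic ribosomal RNA into mitochondria. It read 9.93 on all 3 arrays with tunicamycin, against 10.81, 10.65 and 10.79 with vehicle. No vehicle array came near the treated level, and the gene fell by 0.82 ± 0.072 on the log2 scale, to 0.566 times the vehicle level (adjusted p = 4.71e-08). Mrpl34, the counterpart of a short basic bacterial protein, read 10.45, 10.59 and 10.44, against 11.04, 11.05 and 11.12. Its groups were as clearly apart (-0.57 ± 0.047, adjusted p = 2.03e-08). Mrpl49, which has no bacterial counterpart, read 10.55, 10.48 and 10.46, against 10.96, 10.82 and 10.82, again without overlap (-0.37 ± 0.061, adjusted p = 9.24e-05).

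Of the stalk proteins, which receive the translation factors, Mrpl12 also binds the mitochondrial RNA polymerase in human cells. It read 10.53, 10.62 and 10.67 with tunicamycin, against 10.86, 10.85 and 10.94 with vehicle, lower on every treated array (-0.27 ± 0.078, adjusted p = 0.0116; up to 0.0617 without experiment 1 of tunicamycin 12 h). Mrpl11, at the base of the stalk, read 9.46, 9.48 and 9.11, against 9.87, 9.68 and 9.75. All treated arrays were lower but uneven (-0.42 ± 0.121, adjusted p = 0.0135), and without experiment 3 of tunicamycin 12 h the adjusted p was 0.095. Mrpl10, also of the stalk, did not fall. It read 11.51, 11.58 and 11.52 with tunicamycin, against 11.51, 11.47 and 11.52 with vehicle, and was not called. Mrpl36 fell by 0.25 (adjusted p = 0.00056), and 8 more large subunit genes, Mrpl14, Mrpl16, Mrpl19, Mrpl28, Mrpl40, Mrpl43, Mrpl50 and Mrpl51, fell by between 0.14 and 0.23. Mrpl51 has a further probe set that changed by 0.03, so its 2 probe sets disagree.

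Small subunit genes that fell were led by Mrps25, a protein found in mitochondria only. It read 9.41, 9.45 and 9.29 with tunicamycin, against 9.92, 9.85 and 9.87 with vehicle, a fall on every array (-0.50 ± 0.079, adjusted p = 6.25e-05). Mrps6, which has a bacterial counterpart, read 10.81, 10.75 and 10.68, against 11.23, 11.19 and 11.14. Here too the groups did not overlap (-0.44 ± 0.074, adjusted p = 0.000107). Mrps15, Mrps24, Mrps33 and Mrps34 fell by between 0.14 and 0.23. The calls of Mrpl24, Mrps18b, Mrpl44, Mrpl32, Mrps12, Mrpl38, Mrpl18, Mrpl34, Mrps25, Mrps6, Mrpl49 and Mrpl36 held under all 15 alternative settings tried, leaving out each array included.

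The stretches before the transcription start of the genes with the largest called rise and fall of the large subunit, Mrpl24 and Mrpl18, and of Mrps18b and Mrpl34 beside them, are printed to set genes that moved apart next to each other. They are the 250 bases before the RefSeq start in GRCm38.p6, 5′ to 3′ on the strand of the gene, at chr3:87919294-87919543 (plus strand, Mrpl24), chr17:35916441-35916690 (minus strand, Mrps18b), chr17:12916092-12916341 (minus strand, Mrpl18) and chr8:71464676-71464925 (plus strand, Mrpl34). Capitals mark matches to any of 6 searched motifs, which are given further on.
Mrpl24: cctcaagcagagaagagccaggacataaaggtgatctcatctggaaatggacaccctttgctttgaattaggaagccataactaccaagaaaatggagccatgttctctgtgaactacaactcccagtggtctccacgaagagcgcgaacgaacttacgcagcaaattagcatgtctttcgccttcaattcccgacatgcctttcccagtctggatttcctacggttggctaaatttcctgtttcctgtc
Mrps18b: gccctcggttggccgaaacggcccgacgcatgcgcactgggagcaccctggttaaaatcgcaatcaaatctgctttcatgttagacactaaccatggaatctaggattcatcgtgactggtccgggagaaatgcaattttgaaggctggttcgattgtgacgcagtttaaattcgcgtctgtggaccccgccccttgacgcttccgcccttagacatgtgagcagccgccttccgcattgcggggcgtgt
Mrpl18: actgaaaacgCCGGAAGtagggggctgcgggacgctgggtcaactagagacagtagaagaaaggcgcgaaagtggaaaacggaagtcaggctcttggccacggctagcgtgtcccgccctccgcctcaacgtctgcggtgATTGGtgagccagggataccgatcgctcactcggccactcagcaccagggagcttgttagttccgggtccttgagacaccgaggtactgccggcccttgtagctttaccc
Mrpl34: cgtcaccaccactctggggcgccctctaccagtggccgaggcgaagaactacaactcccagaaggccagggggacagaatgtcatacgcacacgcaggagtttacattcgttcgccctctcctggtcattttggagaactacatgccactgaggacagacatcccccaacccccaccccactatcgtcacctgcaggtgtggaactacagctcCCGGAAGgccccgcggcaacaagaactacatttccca
Neither Mrpl24 nor Mrps18b holds a match in these bases, whereas Mrpl18 holds an ETS and a CAAT match and Mrpl34 an ETS match. A match or its absence describes these letters only.

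With LIP induced, 12 h of tunicamycin changed the genes of the mitochondrial ribosome along the same lines. Against doxycycline alone, 17 rose and 15 fell, a share of 41.6%, beside 29.9% of all genes (13.4% higher, 16.6% lower) and 43.5% of those above the receptor level. The median change was -0.005, against -0.025 for all genes, and with array medians set equal or quantile normalization repeated the split was 14 higher and 17 lower or 15 and 18. Of these 32 genes, 23 had also been called without doxycycline, all in the same direction, 9 higher and 14 lower. That is 71.9% of the 32 and 79.3% of the 29. The shares called in both were close to these over all genes (72.4% and 78.4%) and above the receptor level (74.4% and 79.8%). The 2 comparisons share no array. Their changes correlated at Pearson r = 0.871 and Spearman rho = 0.826 across the 77 genes, which are not independent replicates. Over the genes above the receptor level r was 0.883 and rho 0.805. The sign was the same in 62 of 77, or 80.5%, beside 68.4% of all genes and 76.8% of those above the receptor level.

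**Figure D2:**
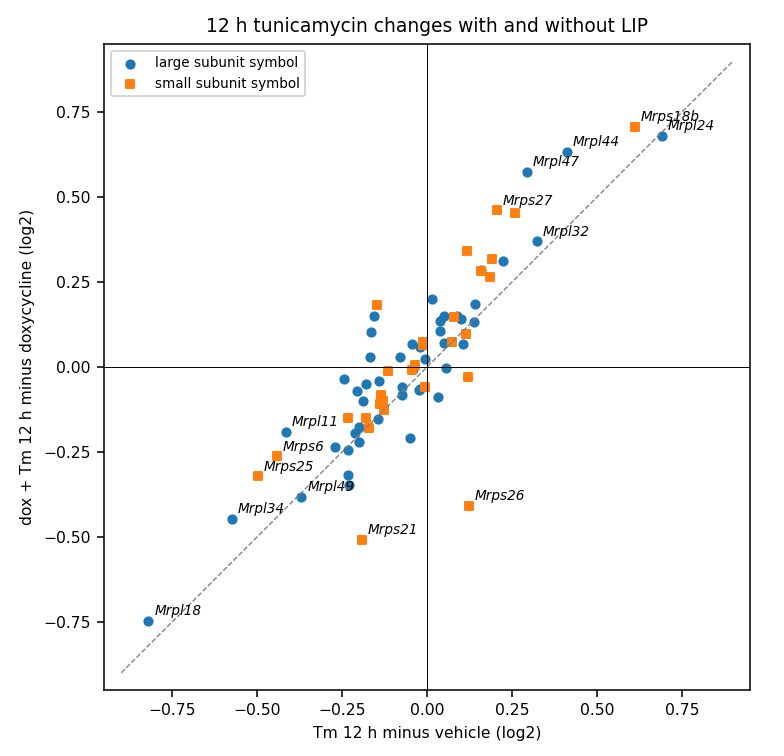
Change on the log2 scale at 12 h of tunicamycin under doxycycline, minus doxycycline (y axis), against the change without doxycycline, minus vehicle (x axis), 1 point per gene, coloured by subunit symbol, with the line of equality dashed. Mrpl24 and Mrps18b lie at the upper right and Mrpl18 at the lower left, and Mrps26 and Mrps21 lie below the line.

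Mrps18b read 11.79, 11.99 and 11.93 with both agents, against 11.03, 11.35 and 11.21 with doxycycline, higher on every array (0.71 ± 0.073, limma, adjusted p = 3.34e-07). Mrpl24 read 10.93, 10.70 and 10.96, against 10.19, 10.14 and 10.22, also without overlap (0.68 ± 0.074, adjusted p = 6.26e-07). Mrpl44 read 9.09, 9.01 and 9.0, against 8.48, 8.24 and 8.47, again without overlap (0.63 ± 0.073, adjusted p = 1.25e-06). Mrps12 rose by 0.45 (adjusted p = 6.42e-06), with 8.46, 8.58 and 8.39 against 8.11, 7.97 and 7.99.

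Several genes were called with doxycycline that had not been called without it. Mrps27, a small subunit protein with repeats typical of RNA-binding proteins, read 9.84, 9.63 and 10.05, against 9.41, 9.34 and 9.39, all higher but widely spread (0.46 ± 0.106, adjusted p = 0.00212). Mrps14 rose by 0.34 ± 0.059 (adjusted p = 0.000142). Mrpl47 read 9.01, 8.49 and 8.87, against 8.09, 8.37 and 8.19; experiment 2 moved least, and the change of 0.57 ± 0.134 (adjusted p = 0.00245) was 0.28 with the mean of its 2 probe sets, of which the dimmer one changed by -0.01. Mrpl2, Mrpl21, Mrpl35, Mrpl39 and Mrps30 rose by 0.13 to 0.28. The interaction test, given below, called none of these as different from the change without doxycycline.

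On the falling side, Mrpl18 read 9.94, 9.60 and 9.79 with both agents, against 10.48, 10.57 and 10.51 with doxycycline, lower on every array (-0.75 ± 0.072, adjusted p = 1.28e-07). Mrpl34 read 10.62, 10.58 and 10.63, against 11.03, 11.09 and 11.05, with no overlap (-0.45 ± 0.047, adjusted p = 4.51e-07). Mrps21, which has a bacterial counterpart, read 12.21, 12.18 and 12.25, against 12.80, 12.74 and 12.63. It was the 1 gene that fell here and had not been called without doxycycline (-0.51 ± 0.141, adjusted p = 0.00858), where the vehicle arrays themselves spread over 12.67, 12.92 and 12.29. Mrpl49, Mrpl14, Mrps25, Mrpl28 and Mrps6 fell by 0.38, 0.35, 0.32, 0.32 and 0.26. The call of Mrps6 was lost without experiment 2 of doxycycline plus tunicamycin 12 h (adjusted p = 0.0682). Mrpl11, Mrpl16, Mrpl36, Mrpl50, Mrps15 and Mrps24, which fell without doxycycline, did not pass the test with it.

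**Figure D3:**
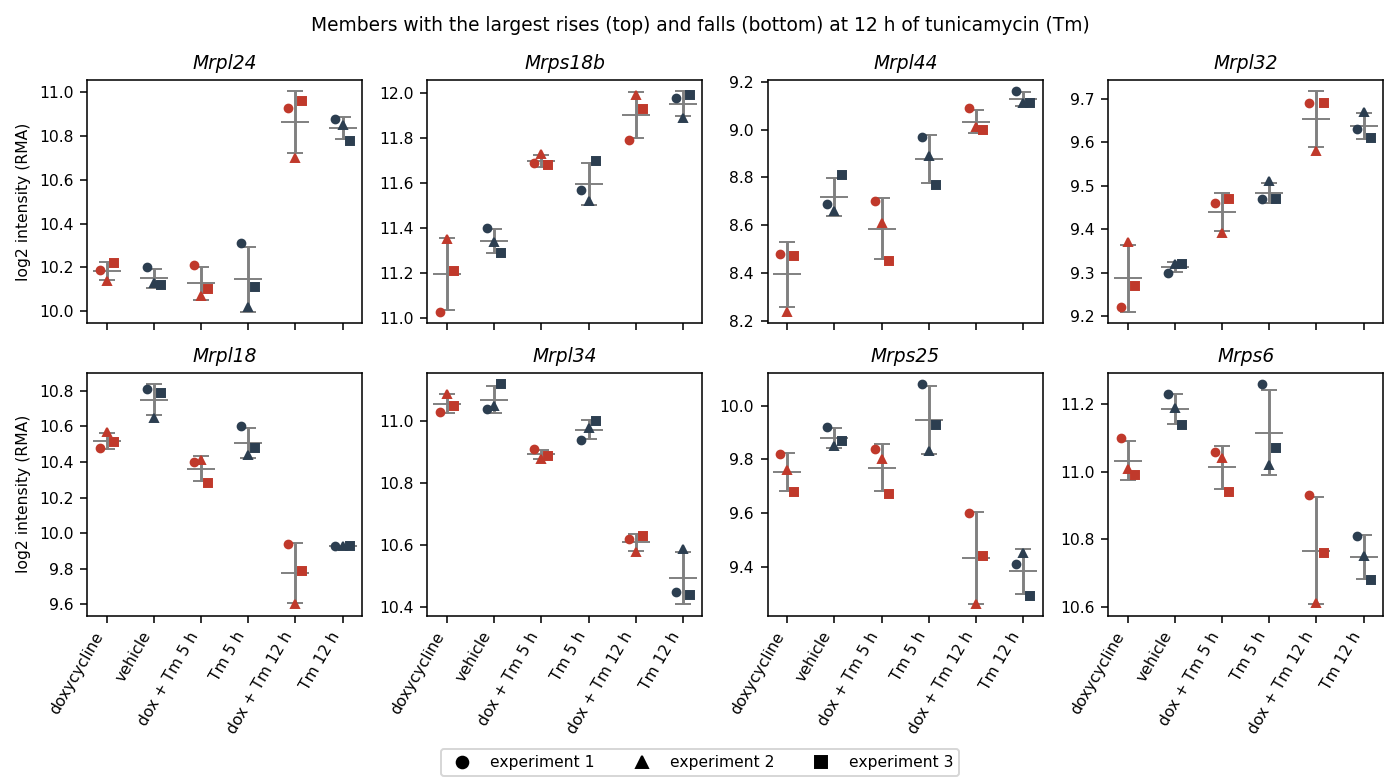
Log2 intensity on each array (y axis, its own range in each panel) for 8 genes with large changes at 12 h of tunicamycin, by group (x axis), red with doxycycline and dark without, the marker giving the experiment. Grey lines are means and bars are SD (n = 3). Mrpl24 rises at 12 h alone, Mrps18b and Mrpl32 already lie higher at 5 h, and Mrpl18 lies lower at 5 h and lower again at 12 h.

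At 5 h of tunicamycin the mitochondrial ribosome genes had moved little. Against vehicle, 4 rose and 2 fell, or 7.79% of the 77. Of all genes 9.02% were called (4.08% higher, 4.94% lower), and of those above the receptor level 13.1%. Repeating quantile normalization gave 5 higher and 0 lower. Mrps12 read 8.30, 8.25 and 8.28 with tunicamycin, against 8.12, 7.95 and 7.95 with vehicle, higher on every array (0.27 ± 0.059, limma, adjusted p = 0.00608), and its call held under all 15 alternatives. Mrps18b rose by 0.26 (adjusted p = 0.0338), Mrps2 by 0.20 (adjusted p = 0.0141) and Mrpl32 by 0.17 (adjusted p = 0.034). Mrps18c fell by 0.33 (adjusted p = 0.0472) and Mrpl18 by 0.24 (adjusted p = 0.0428). The calls of these 5 were lost under 4 to 9 of 15 alternatives, with adjusted p reaching 0.0803 for Mrps2 without experiment 1 of vehicle and 0.227 for Mrps18c without experiment 2 of tunicamycin 5 h and experiment 3 of tunicamycin 12 h, left out together.

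Mrps2, the counterpart of a bacterial small subunit protein, was higher at 5 h and not at 12 h. It read 10.34, 10.44 and 10.41 at 5 h, against 10.14, 10.23 and 10.22 with vehicle, and 10.13, 10.17 and 10.28 at 12 h. The 5 h arrays were thus the highest, and the 12 h arrays overlapped with vehicle (-0.01 against vehicle). The change between 12 h and 5 h was -0.20 ± 0.048 without doxycycline and -0.20 ± 0.048 with it.

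Between 12 h and 5 h of tunicamycin, 6 genes rose and 16 fell, or 28.6% of the 77. Of all genes 25% were called (11.4% higher, 13.6% lower), and of those above the receptor level 36.3%. With array medians set equal or quantile normalization repeated, 4 rose and 18 or 21 fell. Mrpl24 read 10.88, 10.85 and 10.78 at 12 h, against 10.31, 10.02 and 10.11 at 5 h, so that the 12 h arrays were all higher (0.70 ± 0.074, adjusted p = 6.6e-07). Mrps18b rose by a further 0.36 and Mrpl44 by 0.26, and the call of Mrpl44 was lost without experiment 3 of tunicamycin 5 h (adjusted p = 0.0786). Mrpl18, Mrps25, Mrpl34 and Mrps6 fell by 0.58, 0.56, 0.48 and 0.37. Mrps25 had read 10.08, 9.83 and 9.93 at 5 h, overlapping with vehicle.

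Under doxycycline, 5 h of tunicamycin raised 4 genes and lowered 1 against doxycycline alone, or 6.49% of the 77. Of all genes 12.1% were called (6.54% higher, 5.56% lower), and of those above the receptor level 17.9%. With array medians set equal 3 of the 77 rose and 0 fell. Mrps18b read 11.69, 11.73 and 11.68 with both agents, against 11.03, 11.35 and 11.21, higher on every array (0.50 ± 0.073, adjusted p = 0.000123). Mrpl50, a protein without a bacterial counterpart, read 10.26, 10.27 and 10.26, against 10.05, 10.07 and 10.02, also without overlap (0.22 ± 0.046, adjusted p = 0.00331). Mrpl57 and Mrpl32 rose by 0.19 and 0.16, and Mrpl34 fell by 0.16; these 3 calls were lost under 4, 8 and 8 of 14 alternatives, with adjusted p up to 0.132 and 0.201 without experiment 1 of doxycycline and 0.111 without experiment 2 of doxycycline. From 5 to 12 h under doxycycline 12 rose and 18 fell, or 39% of the 77. Of all genes 26.3% were called (10.9% higher, 15.4% lower), and of those above the receptor level 38.6%. Mrpl24 led the rises (0.74 ± 0.074, limma, adjusted p = 3.1e-07). Mrpl18 (-0.59 ± 0.072, adjusted p = 3.7e-06) and Mrpl49 (-0.54 ± 0.061, adjusted p = 1.35e-06) led the falls.

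Doxycycline alone went with slightly lower readings over most of the genes, few of which passed the test 1 by 1. LIP and doxycycline itself cannot be told apart here. Doxycycline against vehicle lowered 6 and raised 1, beside 10.7% of all genes called (4.89% higher, 5.82% lower) and 15.6% of those above the receptor level. The change lay below 0 in 67 of 77, or 87.0%, beside 43.6% of all genes and 48.3% of those above the receptor level. Other lists leaned the same way, with 13 of 13 genes for expression of mitochondrial DNA below 0, 12 of 14 mitochondrial chaperone and protease genes, 13 of 16 mitochondrial tRNA synthetase genes, 18 of 24 assembly genes, 9 of 12 translation factor genes and 44 of 62 cytosolic ribosomal protein genes, while respiratory chain genes had 30 of 79. The median was -0.086, against 0.016 over all genes. Under repeated quantile normalization and equal array medians, 61 and 64 of 77 lay below 0, with medians of -0.061 and -0.067. The mean reading over the 77 genes was 10.06, 10.06 and 10.05 with doxycycline, against 10.16, 10.12 and 10.15 with vehicle. The doxycycline arrays thus all lay lower, while the mean over genes above the receptor level was 9.02 to 9.03 in both groups.

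Mrpl44 was the gene with the largest called fall under doxycycline alone. It read 8.48, 8.24 and 8.47 with doxycycline, against 8.69, 8.66 and 8.81 with vehicle, lower on every array (-0.32 ± 0.073, limma, adjusted p = 0.00689; 0.0512 without experiment 2 of doxycycline). Mrpl50 read 10.05, 10.07 and 10.02, against 10.18, 10.27 and 10.29, also without overlap (-0.20 ± 0.046, adjusted p = 0.00748), and its call held under all 14 alternatives. Mrps30 fell by 0.24 (adjusted p = 0.0499), Mrpl18 by 0.23 (adjusted p = 0.0481), Mrps22 by 0.19 (adjusted p = 0.0283) and Mrpl1 by 0.18 (adjusted p = 0.0375). Mrps16, which has a bacterial counterpart, was the 1 gene that rose, at 9.68, 9.81 and 9.71 against 9.52, 9.51 and 9.56 (0.20 ± 0.06, adjusted p = 0.0331). The calls of these 5 were lost under 5 to 7 of 14 alternatives, and leaving out any 1 of the 6 arrays left 2 or 3 calls of 7. With array medians set equal, 1 gene rose and 2 fell.

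Melanocyte markers moved in the same comparison: 8 of the 12 fell with doxycycline and 0 rose, with changes from -0.95 to 0.16, while of the leukocyte, endothelial, fibroblast and epithelial markers 1 rose and 2 fell in all. Their part in the result was not tested. Myc, a transcription factor whose targets include ribosome and mitochondrial genes, fell by 0.93 ± 0.064 (adjusted p = 3.39e-08), and its part was not tested either.

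Doxycycline changed few of these genes under tunicamycin. At 5 h, doxycycline plus tunicamycin against tunicamycin raised 1 and lowered 1, or 2.6% of the 77, with a median of -0.025. Of all genes 12% were called (6.76% higher, 5.21% lower), and of those above the receptor level 17.6%. Mrpl44 read 8.70, 8.61 and 8.45, against 8.97, 8.89 and 8.77, lower on every array (-0.29 ± 0.073, adjusted p = 0.011), although without experiment 3 of doxycycline plus tunicamycin 5 h the adjusted p was 0.0786. Mrpl46, a protein found in mitochondria only, read 9.33, 9.19 and 9.21, against 8.78, 8.88 and 9.07 (0.33 ± 0.102, adjusted p = 0.0415), and its call was lost under 8 of 15 alternatives, with adjusted p up to 0.166 without experiment 1 of tunicamycin 5 h.

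At 12 h, doxycycline plus tunicamycin against tunicamycin raised 1 and lowered 2, or 3.9% of the 77, with a median of -0.026. Of all genes 14.7% were called (6.95% higher, 7.77% lower), and of those above the receptor level 21.5%. With array medians set equal 1 of the 77 rose and 1 fell. Mrps12 read 8.46, 8.58 and 8.39, against 8.24, 8.25 and 8.29, higher on every array (0.21 ± 0.059, adjusted p = 0.0176; 0.096 without experiment 2 of doxycycline plus tunicamycin). Mrpl19 fell by 0.18 (adjusted p = 0.0449), and its call was lost under 8 of 15 alternatives (adjusted p up to 0.217, without experiment 1 of doxycycline plus tunicamycin).

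The other called fall at 12 h, of Mrps26, a small subunit protein of mitochondria only, was not the same in every experiment, and the gene is named here after its values were seen. It read 8.32, 9.50 and 8.50 with both agents, against 9.46, 9.47 and 9.54 with tunicamycin alone (-0.71 ± 0.196, adjusted p = 0.0176). Experiments 1 and 3 lay about 1 lower and experiment 2 on a level with tunicamycin alone. On the same arrays Mrpl46 read 8.82, 9.21 and 8.63, and Mrpl47 9.01, 8.49 and 8.87, with experiment 2 again standing apart. Over the 77 genes that array varied about its group mean with a standard deviation of 0.136, against 0.039 to 0.0971 on the other 17. Over all genes the same array had 0.0828, inside the range of 0.0606 to 0.113 over the 18 arrays. It thus stood apart for some of these genes and not as a whole. Without that array, 6 genes in place of 3 were called. Mrps26 (-1.07), Mrpl46 (-0.36), Mrpl12 (-0.26), Mrpl19 (-0.23) and Mrpl28 (-0.18) were lower and Mrps36 (0.36) higher, and Mrps12 was no longer called. The array was singled out from values of these same genes, so the calls made without it are a description and not support.

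Whether the tunicamycin change differed with doxycycline was tested as an interaction, the doxycycline change under tunicamycin minus the doxycycline change without it. At 5 h limma called 0 of the 77, beside 0.0301% of all genes, and 4, or 5.19%, had an unadjusted p under 0.05, beside 8.28% of all genes. At 12 h it called 1, Mrpl50, beside 1.84% of all genes (0.993% higher, 0.848% lower). An unadjusted p under 0.05 was found for 9, or 11.7%, all 9 above 0, beside 12.3% of all genes, of which 1207 lay above 0 and 1254 below. Mrpl50 read 10.15, 10.11 and 10.19 with both agents, 10.05, 10.07 and 10.02 with doxycycline, 10.02, 10.09 and 10.13 with tunicamycin and 10.18, 10.27 and 10.29 with vehicle. It was thus lower than vehicle with either agent alone, while with both it lay above tunicamycin alone in each experiment (interaction 0.27 ± 0.065, adjusted p = 0.0407). The call was lost under 11 of 21 alternatives, with adjusted p up to 0.123 without experiment 3 of vehicle. Without experiment 2 of doxycycline plus tunicamycin 12 h, Mrps26 was called as well (-0.89 ± 0.149, adjusted p = 0.00363). That array was singled out from values of Mrps26 itself, so this call is no support for an interaction. With all arrays the interaction of Mrps26 was -0.53 ± 0.278 (adjusted p = 0.459).

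Across the 3 times the doxycycline changes of these genes correlated as follows. Between 5 h and 0 h of tunicamycin r was 0.338 over the 77 genes, beside 0.739 over genes above the receptor level. Between 12 h and 0 h the values were 0.213 and 0.657, and between 12 h and 5 h -0.193 and 0.765. Spearman rho over the 77 genes was 0.273, 0.205 and -0.016 in this order, beside 0.583, 0.547 and 0.627. The doxycycline changes of the 77 had a standard deviation of 0.084, 0.097 and 0.119 at 0, 5 and 12 h. Over genes above the receptor level it was 0.169, 0.186 and 0.208. These comparisons share no array, and the difference between the values was not tested. The change lay below 0 at all 3 times in 25 of 77 genes and above 0 in 3 of 77, beside 22.2% and 21.3% of all genes.

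Both subunits held genes that rose and genes that fell. At 12 h of tunicamycin, 5 of 48 large subunit genes rose and 14 fell (median -0.047), and 4 of 29 small subunit genes rose and 6 fell (median -0.014). The shares called were 39.6% and 34.5%, beside 27.7% of all genes and 40.5% of those above the receptor level. Under doxycycline at 12 h, 10 and 10 of the large and 7 and 5 of the small subunit genes rose and fell. These were 41.7% and 41.4%, beside 29.9% of all genes and 43.5% of those above the receptor level. With doxycycline alone the medians were -0.084 and -0.089. The symbols do not always give the place of the protein: Mrps18a and Mrps30 sit in the large subunit, and Mrps36 is a component of the oxoglutarate dehydrogenase complex. Grouped by place, 50 large subunit genes had 5 rises and 14 falls at 12 h of tunicamycin (38%), and 26 small subunit genes 4 and 6 (38.5%). Of 46 genes listed with a bacterial counterpart 4 rose and 12 fell (34.8%), and of 30 listed as found in mitochondria only 5 rose and 8 fell (43.3%). Mrps18c was listed among those with a counterpart, and Mrps18a and Mrps18b among the others, although their family descends from a bacterial gene. The difference between these groups was not tested.

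**Figure D4:**
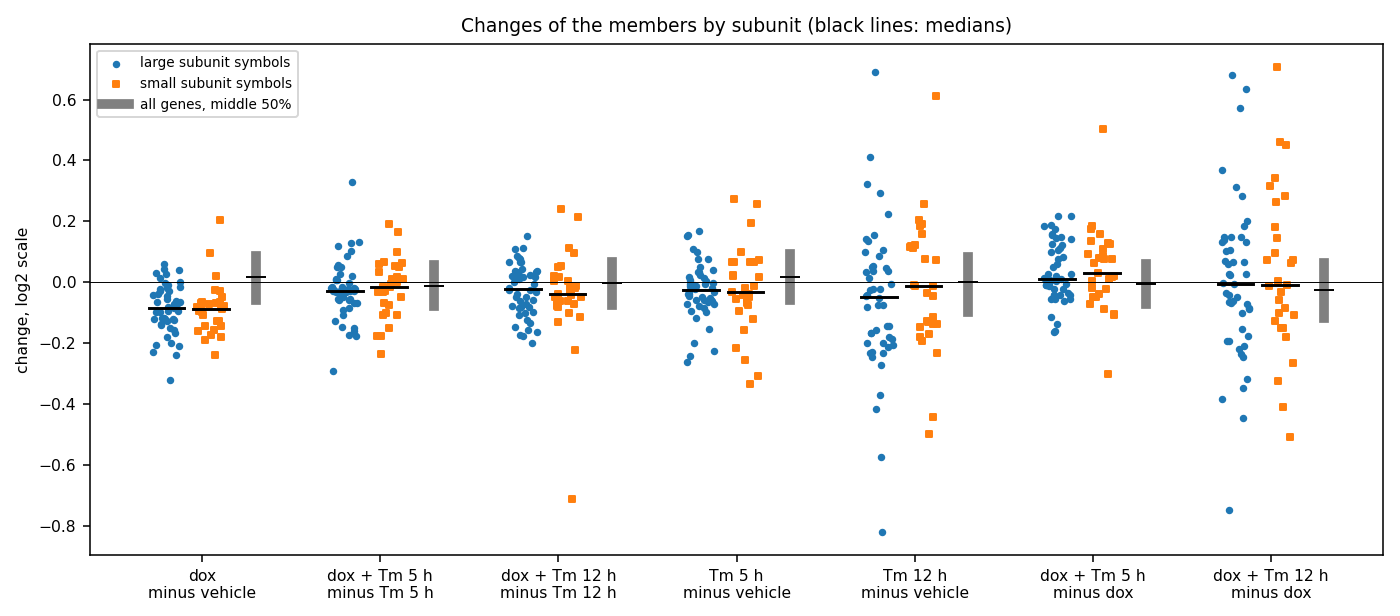
Change on the log2 scale (y axis) of each gene in 7 comparisons (x axis), large subunit symbols blue and small subunit symbols orange, with black lines at their medians and grey bars for the middle 50% of all genes. Both subunits lie mostly below 0 for doxycycline minus vehicle and spread widely on both sides of 0 at 12 h of tunicamycin.

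The 3 genes of the Mrps18 family had unlike values. At 12 h of tunicamycin against vehicle Mrps18b rose by 0.61 ± 0.073, while Mrps18a changed by -0.04 ± 0.065 and Mrps18c by -0.13 ± 0.102, neither of which passed the test. Under doxycycline the values were 0.71 for Mrps18b, -0.01 for Mrps18a and -0.10 for Mrps18c. Mrps18a read 11.04, 11.00 and 10.87 at 12 h of tunicamycin, against 11.03, 10.96 and 11.04 with vehicle, and the groups overlapped. Mrps18c read 9.93, 9.62 and 9.78, against 9.96, 9.88 and 9.88, likewise with overlap. The difference between family members was not tested.

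Mrps30 read 8.22, 8.16 and 8.24 with doxycycline, against 8.50, 8.42 and 8.42 with vehicle, and 8.50, 8.46 and 8.51 with both agents at 12 h, so that it rose against doxycycline alone (0.28 ± 0.076, adjusted p = 0.00668). Mrps36 changed by -0.15 ± 0.096 at 12 h of tunicamycin and by 0.18 ± 0.096 under doxycycline, neither of which passed the test. RefSeq lists pseudogenes of Mrps36, Mrpl23, Mrpl27 and Mrpl48, whose probe sets could read them too, so these values are uncertain. Mrpl12 fell at 12 h with doxycycline as well (-0.24 ± 0.078, adjusted p = 0.0261), although its experiment 2 went the other way, with 10.32, 10.60 and 10.38 against 10.79, 10.50 and 10.72. Of the 77 genes, 28 were called in 0 of the 11 comparisons, among them Mrpl3, Mrpl4, Mrpl9, Mrps5, Mrps9 and Mrps11, and 49, or 63.6%, in at least 1, beside 46.4% of all genes and 65.5% of those above the receptor level. Mrpl18, Mrpl32, Mrpl44 and Mrps18b were called in 6 each.

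Genes that work with the mitochondrial ribosome were read from lists. At 12 h of tunicamycin, 27.7% of all genes and 40.5% of those above the receptor level were called, and under doxycycline 29.9% and 43.5%. The 62 cytosolic ribosomal protein genes had few calls. At 12 h of tunicamycin 0 rose and 1 fell, Rpl37a (-0.32 ± 0.081, limma, adjusted p = 0.0049), with 3 at an unadjusted p under 0.05. Their changes had a standard deviation of 0.071, against 0.235 for the 77 mitochondrial ones. The cytosolic genes lay at a median level of 12.28, against 10.19, and 2 of them lay below the receptor level. Whether the level bears on the spread was not tested. With doxycycline alone 2 of the 62 fell, Rpl12 (-0.40) and Rpl30 (-0.17), or 3.23%, beside 10.7% of all genes called. The 4 measured mitochondrial ribosome genes with other symbols, Dap3, Ptcd3, Chchd1 and Gadd45gip1, had 0 calls at 12 h of tunicamycin with or without doxycycline, and 0 at an unadjusted p under 0.05. Of 12 mitochondrial translation factor genes 2 fell at 12 h, or 16.7%. These were the elongation factors Gfm1 and Tufm (-0.32 ± 0.055 and -0.32 ± 0.06), which had also fallen with doxycycline alone (-0.23 and -0.29). Under doxycycline at 12 h 3 of the 12 rose, Mtfmt (0.40), Guf1 (0.26) and Mtif2 (0.22), and 1 fell, Tufm (-0.17), or 33.3%.

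Among 24 genes for assembly of the mitochondrial ribosome, 7 rose and 1 fell at 12 h of tunicamycin, or 33.3%. That stood beside 27.7% of all genes and 40.5% of those above the receptor level. Mtg1, a GTPase of assembly, rose by 0.76 ± 0.192, Tfb1m, which methylates the small subunit ribosomal RNA, by 0.74 ± 0.055 (adjusted p = 5.37e-09) and Ngrn by 0.56 ± 0.09, while Rbfa, a small subunit assembly factor, fell by 0.41. Under doxycycline 7 rose and 2 fell, or 37.5%, beside 29.9% of all genes and 43.5% of those above the receptor level. Tfb1m rose again, by 0.72, and Mtg1 changed by 0.10 and did not pass the test. Of 16 mitochondrial tRNA synthetase genes 5 rose and 1 fell without doxycycline, and 5 and 1 with it, or 37.5% each time. Nars2 led the rises (0.72 ± 0.08 and 0.76 ± 0.08). Of 14 mitochondrial chaperone and protease genes 6 rose and 0 fell in each, or 42.9%. Among them were Lonp1, the protease of the matrix (1.03 ± 0.053 and 0.55 ± 0.053), and Dnaja3 (0.91 and 0.92).

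Of 79 genes for nuclear-encoded subunits of the respiratory chain and ATP synthase, 3 rose and 20 fell at 12 h of tunicamycin, or 29.1%. Under doxycycline 2 and 15 did, or 21.5%. The shares of all genes were 27.7% and 29.9%, and of those above the receptor level 40.5% and 43.5%. Cox6a2, known as a heart and muscle subunit, rose by 1.86 ± 0.092, and Uqcrh and Sdhd fell by 0.79 ± 0.059 and 0.72 ± 0.087. Of 13 genes for expression of mitochondrial DNA, 4 fell and 0 rose with doxycycline alone, or 30.8%. That stood beside 10.7% of all genes and 15.6% of those above the receptor level. Among the falls were the helicase Twnk (-0.32), Tfam (-0.28) and Lrpprc (-0.27). At 12 h of tunicamycin 3 of the 13 rose and 2 fell, or 38.5%. Under doxycycline at 12 h 6 rose and 1 fell, or 53.8%, and Tfam rose by 0.63 ± 0.086 (limma, adjusted p = 1.05e-05). Of 9 regulators of mitochondrial biogenesis, 1 rose and 4 fell at 12 h of tunicamycin, or 55.6%. Gabpa rose by 0.16, and among the falls were Ppargc1b (-0.55), Esrra (-0.36) and Ppargc1a (-0.21).

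Promoter windows of 300 bases, 250 before and 50 after the RefSeq start, were found for 68 of the 77 genes in GRCm38.p6. They were searched on both strands for exact letters. The ETS motif CCGGAAG, read by GABPA, was found in 25 of 68, or 36.8%, beside 18.6% of 10532 genes above the receptor level and 9.93% of all 27025 genes with a window. The NRF1 motif was found in 13, or 19.1%, beside 10.8% and 5.19%. The YY1 motif AAGATGG was found in 13, or 19.1%, beside 7.98% and 7.28%. The E-box CACGTG was found in 5, or 7.35%, beside 11.5% and 8.09%. The CAAT motif CCAAT was found in 26, or 38.2%, beside 41.8% and 41.1%, and TGATGNAA, a form of the ATF4 element, in 0, beside 2.61% and 4.51%. No motif here contains another of them.

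Split by the call at 12 h of tunicamycin, the ETS motif was in 4 of 8 genes that rose, 5 of 18 that fell and 16 of 42 not called, and the NRF1 motif in 3, 2 and 8. The ETS match of Mrpl18 begins at position -240 from the start and that of Mrpl34 at -37, as the printed bases show, and the window of Mrps18b has one at 44, past the printed bases. These shares are a description and were not tested.

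Another feature of position was looked at after the values were seen. Of the 68 genes with a window, 26, or 38.2%, start within 1000 bases of a gene that runs the opposite way from a start upstream, beside 18.8% of genes above the receptor level and 12.3% of all genes with a window. Of 22 such pairs with a measured partner outside the mitochondrial ribosome genes, Pearson r of the changes at 12 h of tunicamycin was 0.0617, across genes and as a description. Of 11 called members of the mitochondrial ribosome, 4 had a partner called the same way, 2 a partner called the other way and 5 a partner not called. In this comparison 27.7% of all genes and 40.5% of those above the receptor level were called. Under doxycycline at 12 h, the counts were 4, 1 and 9 of 14, and r was 0.124. Mrpl18 and its partner Tcp1, 238 bases apart, changed by -0.82 and -0.18, both called. Mrps18b rose by 0.61 beside Ppp1r10 at -0.13, and Mrpl49 fell by 0.37 beside Fau, a cytosolic ribosomal protein gene 192 bases away, at 0.03. Mrpl32 rose and Psma2 fell (0.32 and -0.26), as did Mrpl57 and Ska3 (0.16 and -0.55). Mrpl46 and Mrps11, 42 bases apart, are both mitochondrial ribosome genes, and neither was called at 12 h of tunicamycin.

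**Figure D5:**
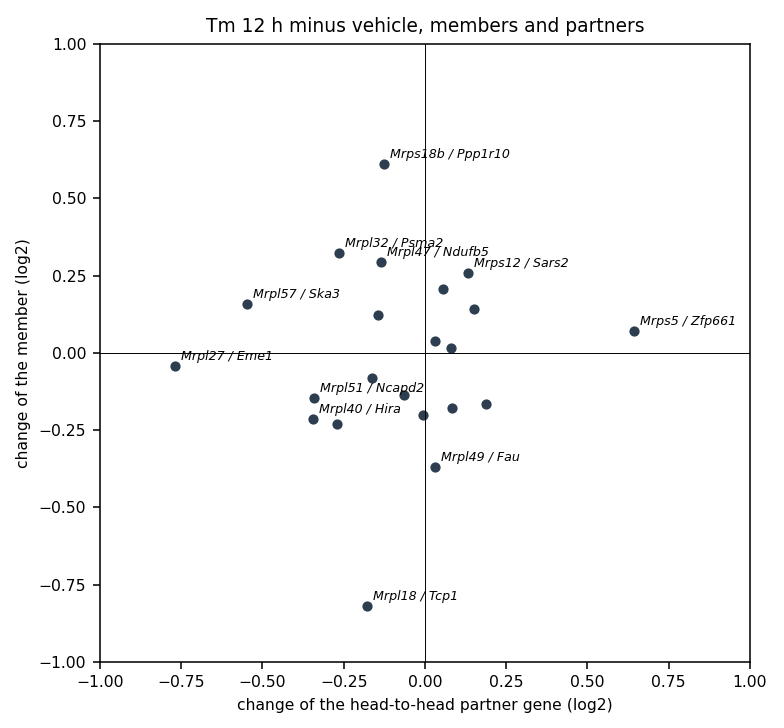
Change at 12 h of tunicamycin minus vehicle, log2 scale, of mitochondrial ribosome genes (y axis) and of the gene that starts head to head with each (x axis), 1 point per pair with a partner outside these genes. The points lie on both sides of 0 on both axes, with Mrpl18 and Tcp1 at the bottom and Mrps18b and Ppp1r10 at the top.

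Over the 6 group means, the average of the centred levels of the 77 genes was highest with vehicle (0.046) and lowest with doxycycline (-0.04). Among 13170 other genes above the receptor level, the 5 with the highest Pearson r with it over these 6 means were Cdadc1 (0.980), Spint1 (0.979), Kif5c (0.977), Snora20 (0.976) and Thap4 (0.975). With 6 points and so many genes, this is a description only.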

How the data were processed

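Total RNA was labelled with biotin and read on 18 one-colour arrays, 3 per group, grouped by the labels. Values of 35557 probe sets are log2 intensities that the authors deposited after RMA, with Partek used, per the submitters' processing notes; versions, settings and a genome build are not given in the sources used here. RMA understates changes of dim probe sets. Detection calls were not used here, and precision is limited by how many arrays there are; 0 pairs of arrays were identical. Probe sets were named through the platform's gene table: 21789 name 1 gene, 1621 several and 12147 none, and names from the last 2 kinds were not used. The 77 symbols all matched RefSeq by Entrez ID.

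Group means were fitted with limma 3.58.1 (R 4.3.3; 12 residual and 5.99 prior degrees of freedom). P-values were adjusted over all genes by Benjamini-Hochberg with a threshold of 0.05; the fit was tested on simulated data. The submitters describe 3 independent experiments, so p-values measure the spread between them, and a block by replicate number was an alternative. Named were, per comparison, up to 8 genes each way at 12 h of tunicamycin and for doxycycline alone, and up to 4 otherwise, called and moved the same way for all 3 replicate numbers, with Mrpl12, Mrps18a, Mrps18b, Mrps18c, Mrps30 and Mrps36 throughout. Of the other lists up to 3 called genes were named. The members and lists were chosen with earlier results of these data known. Promoter sequences are RefSeq's. Alternatives were the block, the compared groups alone, dim genes left out, 2 rescalings, a variance trend, array weights, probe set means and each array left out; leaving out experiment 2 of tunicamycin 5 h and experiment 3 of tunicamycin 12 h together was added after seeing the data. Doxycycline-treated cells without the LIP construct and vehicle at later times were not used here.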

Additional observations from a re-analysis of the deposited data

Results flagged for a closer look

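Mrpl50, a large subunit gene, is set apart because its doxycycline change at 12 h of tunicamycin differed from that without tunicamycin by the interaction test. The interaction was 0.27 ± 0.065 (SE; limma, adjusted p = 0.0407), with 0.27, 0.21 and 0.33 between arrays of the same number. The doxycycline change was 0.07 ± 0.046 under 12 h of tunicamycin and -0.20 ± 0.046 without it. The 12 h change with tunicamycin was 0.10 ± 0.046 under doxycycline and -0.16 ± 0.046 without it. The call was lost under 11 of 21 alternatives, and at 5 h the interaction was 0.18 ± 0.065 (adjusted p = 0.48). Without experiment 2 of doxycycline plus tunicamycin 12 h, Mrps26 was called beside Mrpl50 (-0.89 ± 0.149, adjusted p = 0.00363). That array was singled out from values of Mrps26 itself, and with all arrays the interaction of Mrps26 was not called.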

How the results depend on the processing

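The counts of mitochondrial ribosome genes called at 12 h of tunicamycin kept within 1.5 times of 29 (without doxycycline) and 32 (with it) under every alternative run; smaller counts moved. For doxycycline against vehicle, 7 became 3 with array medians set equal and 13 with array weights. For 5 h of tunicamycin 6 became 1, for 12 h against 5 h 22 became 14, for doxycycline at 12 h of tunicamycin 3 became 1, and for the 12 h interaction 1 became 0, when only the compared groups were fitted, which leaves fewer arrays. Array medians set equal gave 3 in place of 5 for 5 h of tunicamycin under doxycycline and 0 in place of 1 for the 12 h interaction. For doxycycline at 5 h of tunicamycin, 2 became 1 with the replicate number as a block, 1 with only the compared groups, 5 with array weights and 1 without experiment 2 of tunicamycin 5 h and experiment 3 of tunicamycin 12 h together. Arrays of the same number shared little at the median. Their deviations from the group means correlated at a median r of 0.04 (-0.50 to 0.50) over 45 pairs, 14 above 0.1. Pairs of different numbers had a median of -0.01 (-0.50 to 0.53) over 90 pairs, 15 above 0.1. The numbers were not taken to pair the arrays in the main fit, though some sharing by number is possible. The block by number gave 8 calls for doxycycline against vehicle and 31 and 32 at 12 h of tunicamycin without and with doxycycline. It lowered a called count by over 1.5 times only for doxycycline at 5 h of tunicamycin, from 2 to 1.

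Leaving out 1 array at a time gave 2 to 3 calls for doxycycline, 1 to 4 for 5 h and 20 to 28 for 12 h of tunicamycin, 16 to 24 between these times, 0 to 2 and 1 to 6 for doxycycline at 5 and 12 h of tunicamycin, 2 to 4, 23 to 29 and 18 to 24 for the 3 tunicamycin comparisons under doxycycline, and 0 to 0 and 0 to 2 for the interactions. For doxycycline against vehicle every one of the 6 arrays, left out, gave 2 or 3. For 5 h of tunicamycin the count was 1 without experiment 1 of vehicle or experiment 3 of tunicamycin, 2 without experiment 3 of vehicle and 3 without experiment 2 of either. For doxycycline at 5 h of tunicamycin it was 0 without experiment 1 of tunicamycin or experiment 3 of both agents, and 1 without experiment 2 of either. For doxycycline at 12 h it was 1 without experiment 3 of either group and 6 without experiment 2 of both agents. Under doxycycline, 5 h of tunicamycin had 2 without experiment 1 or 3 of doxycycline or experiment 1 of both agents and 3 without experiment 2 of both agents, and 12 h against 5 h had 18 of 30 without experiment 2 of 5 h and 19 without experiment 3 of 12 h. The count of the 12 h interaction was 1 without experiment 1 of vehicle or experiment 3 of tunicamycin, 2 without experiment 2 of both agents and 0 without any other array. Of 1956 values of single genes under the alternatives, 1777 kept their side of the threshold, 169 lost it, 10 gained it and 0 turned direction as a called value. The smallest called change at 12 h of tunicamycin was 0.14 in size. The cause of these moves was not tested.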
